A study of Mus musculus with 8 samples.

Results

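The actomyosin and smooth muscle contractile genes are 34 genes chosen by name: actins, calponins, myosin chains, tropomyosins and other thin-filament proteins, cross-linkers and intermediate filaments, adhesion scaffolds, LIM-only proteins and the transcription factor Srf. All 34 were found in each of the deposited tables, among 15994 genes in the MLL-AF9 table and 55421 in the AE9a table. The RNA came from adherent bone marrow stromal cells (BMSC), grown from mouse marrow and bone in a-MEM medium with serum until attached cells were seen. The donors were Id1+/+ or Id1-/- mice that carried a transplanted acute myeloid leukaemia and were harvested 6 weeks after transplantation. The leukaemia was driven either by the KMT2A-MLLT3 fusion MLL-AF9 or by AE9a, a truncated AML1-ETO fusion, which gives 4 groups of 2 samples: MLL-AF9 Id1+/+, MLL-AF9 Id1-/-, AE9a Id1+/+ and AE9a Id1-/-. Every group, the Id1+/+ controls included, thus came from leukaemic mice, and every RNA was taken after culture. The strain, age and sex of the mice, the cells used for transplantation and how the Id1 allele was made are not given in the sources used here. The labels number the replicates without saying that they came from separate animals, so p-values measure only the spread between these libraries.

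Contractile force in smooth muscle, pericytes and activated stromal cells comes from myosin II motors that pull on actin filaments. Myosin light chain kinase switches the motors on, calponins, caldesmon and tropomyosins regulate the thin filament, and vinculin, zyxin and their partners couple the filaments to adhesions. Many of these genes are known targets of SRF, which binds the CArG box and is driven by the actin-sensing cofactors MRTFA and MRTFB, and several are known targets of TEAD factors with YAP1 and WWTR1. ID1 holds back E-box-binding basic helix-loop-helix factors.

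The promoters of 5 genes are printed because they hold the SRF site or a near form of it in genes whose RNA behaved differently below: Vcl and Myl9 were higher in Id1-/- MLL-AF9 cultures, Cnn2 and Srf did not pass the test, and Acta2, with near forms only, had the lowest adjusted p of the contractile genes after Palld. Each runs 5′ to 3′ on the gene's own strand from 250 bases before to 50 after the start (RefSeq, GRCm38.p6), with CArG boxes and 10-base matches that differ from the box by 1 inner letter in capitals. The regions are chr14:20929148-20929447 on the plus strand for Vcl, chr2:156775214-156775513 on the plus strand for Myl9, chr10:79988350-79988649 on the plus strand for Cnn2, chr17:46556113-46556412 on the minus strand for Srf and chr19:34255324-34255623 on the minus strand for Acta2.
Vcl: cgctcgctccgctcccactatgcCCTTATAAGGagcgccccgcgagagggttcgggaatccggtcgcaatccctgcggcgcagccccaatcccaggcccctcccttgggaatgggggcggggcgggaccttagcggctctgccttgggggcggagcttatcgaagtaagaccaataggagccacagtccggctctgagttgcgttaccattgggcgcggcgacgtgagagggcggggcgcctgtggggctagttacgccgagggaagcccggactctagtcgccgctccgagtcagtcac
Myl9: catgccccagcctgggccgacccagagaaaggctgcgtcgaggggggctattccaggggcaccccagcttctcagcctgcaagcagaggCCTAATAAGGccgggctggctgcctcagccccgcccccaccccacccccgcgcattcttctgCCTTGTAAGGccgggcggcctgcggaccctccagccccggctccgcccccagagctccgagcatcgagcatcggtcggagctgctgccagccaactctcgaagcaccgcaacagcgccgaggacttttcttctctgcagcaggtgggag
Cnn2: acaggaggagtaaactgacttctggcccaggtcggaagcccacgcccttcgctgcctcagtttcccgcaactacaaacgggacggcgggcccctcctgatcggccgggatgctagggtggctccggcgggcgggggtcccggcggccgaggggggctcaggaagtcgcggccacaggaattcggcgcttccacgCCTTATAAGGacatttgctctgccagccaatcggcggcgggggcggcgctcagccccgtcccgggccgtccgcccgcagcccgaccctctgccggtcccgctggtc
Srf: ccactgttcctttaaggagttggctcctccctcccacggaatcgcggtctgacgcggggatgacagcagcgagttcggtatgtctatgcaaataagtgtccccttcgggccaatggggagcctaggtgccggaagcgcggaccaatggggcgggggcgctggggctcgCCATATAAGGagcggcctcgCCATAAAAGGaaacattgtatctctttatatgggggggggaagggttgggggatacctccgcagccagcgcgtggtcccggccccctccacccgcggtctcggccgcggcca
Acta2: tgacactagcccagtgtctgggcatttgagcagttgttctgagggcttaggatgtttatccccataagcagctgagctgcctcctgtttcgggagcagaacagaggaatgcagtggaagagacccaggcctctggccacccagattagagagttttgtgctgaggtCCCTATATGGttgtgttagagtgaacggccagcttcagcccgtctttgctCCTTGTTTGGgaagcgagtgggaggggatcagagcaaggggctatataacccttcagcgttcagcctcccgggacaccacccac
The Vcl and Cnn2 promoters share the same box, CCTTATAAGG, 227 bases before the start in Vcl and 56 before it in Cnn2. Srf carries CCATATAAGG and CCATAAAAGG, 82 and 62 bases before its own start. Myl9 has the full box CCTAATAAGG 161 bases before the start and the near form CCTTGTAAGG 99 bases before it. In Acta2 the near forms CCCTATATGG and CCTTGTTTGG lie 84 and 34 bases before the RefSeq start. The GENCODE gene whose coordinates are given below begins at 34255590, inside the printed region and upstream of both near forms. Those 2 distances thus hold for the RefSeq start only.

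The MLL-AF9 libraries held 17864812 to 22510346 counts. The deposited AE9a columns of a genotype were not separate libraries: the first Id1+/+ column exceeded the second by exactly 134 in 17957 of 17958 genes counted at least 2 times there, and the second Id1-/- column exceeded the first by exactly 17 in each of 14187 genes counted at least 10 times. Each AE9a genotype was therefore taken as 1 library, of 20967896 (Id1+/+) and 18126803 (Id1-/-) counts, with no test between them. Id1 itself fell from 34.6 and 28.8 to 11.6 and 12 CPM (counts scaled by library size) in MLL-AF9 and from 383 to 83 counts in AE9a, in the direction its labels give. Id1 RNA was thus still counted in the Id1-/- libraries, at 226 and 222 counts in MLL-AF9, and the reason was not tested. The labels call the cells mesenchymal. The 12 mesenchymal stroma markers nevertheless summed to 797 and 877 CPM in MLL-AF9 Id1+/+ libraries, while 12 macrophage markers summed to 30400 and 27590 CPM, so the cultures held RNA of both cell types. In such bulk RNA, more cells of a type and more RNA per cell cannot be told apart.

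The first comparison asks which contractile genes differed between Id1-/- and Id1+/+ stromal cultures from MLL-AF9 mice. Most of them were higher in the Id1-/- libraries. Of 33 contractile genes with enough counts to be tested, 27 were higher and 0 lower at a Benjamini-Hochberg adjusted p under 0.05 in edgeR's quasi-likelihood test, where 17.2% of all 14137 genes tested were higher and 10.6% were lower. The median log2 fold of the 33 was 0.70, beside 0.003 over all genes tested. Together the 34 genes made up 0.862% and 0.887% of all counts in the Id1+/+ libraries and 1.16% and 1.2% in the Id1-/- libraries. In 30 of the 33, both Id1-/- libraries lay above both Id1+/+ libraries, a pattern found in 33.5% of all genes tested. In Myl6 and Vim both lay below, against 31.5% of all genes; these were also the 2 genes lower at an unadjusted p under 0.05 in edgeR, and DESeq2 called Vim lower (adjusted p = 0.0251). The 6 genes that did not pass the test were Cnn2, Myl6, Tpm4, Des, Vim and Srf, and Myh11 had too few counts to be tested. Cnn2 had an unadjusted p of 0.0249 in edgeR. With library totals as the scaling, edgeR called Cnn2 (adjusted p = 0.00717), Tpm4 (0.036) and Srf (0.0455) higher, while the median of all genes moved to 0.11. Cnn2 was also called higher by edgeR with a replicate block (adjusted p = 0.0127).

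**Figure D1:**
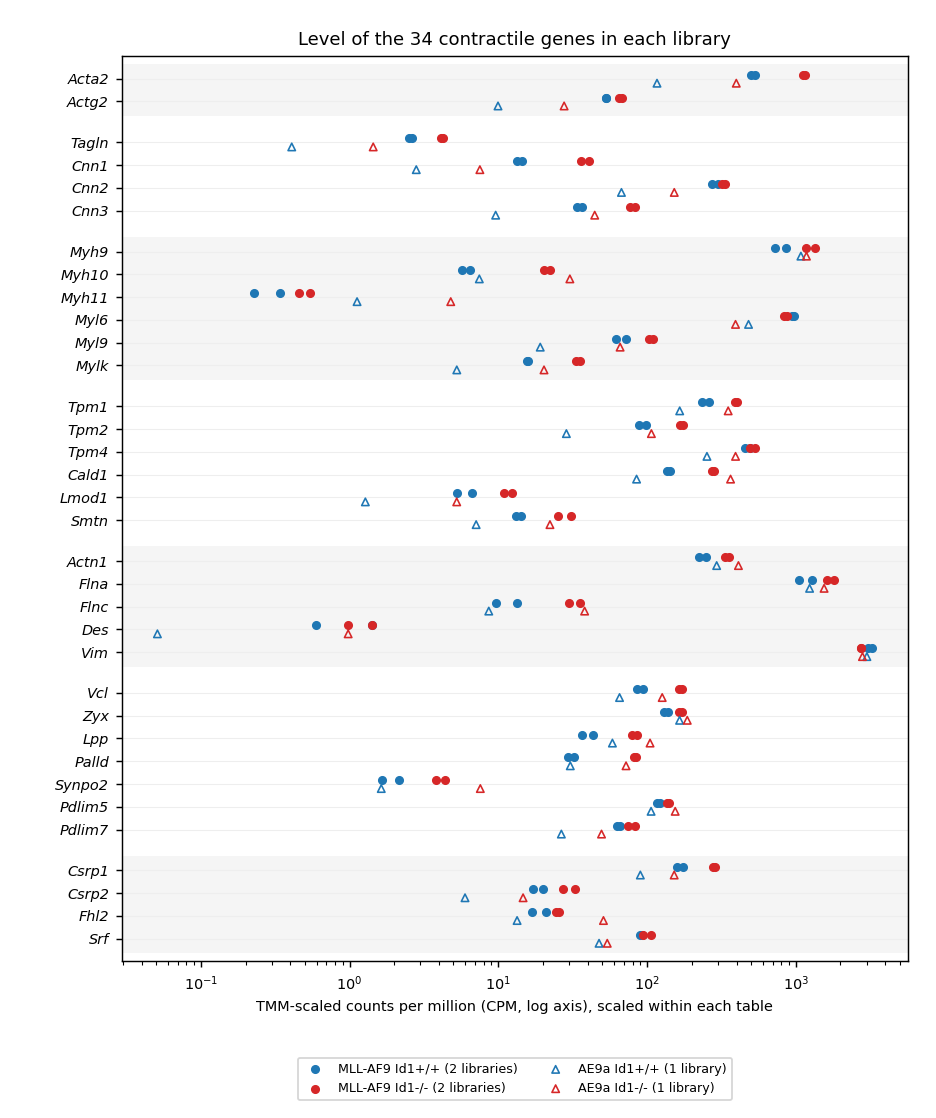
Level of each contractile gene in every usable library, as TMM-scaled CPM on a log axis, with circles for the 4 MLL-AF9 libraries, triangles for the 2 AE9a libraries, blue for Id1+/+ and red for Id1-/-; grey bands separate the role groups, and levels were scaled within each table. For Acta2 the red circles sit at 1114 and 1157 CPM and the blue ones at 531 and 499, while for Vim the red circles (2752 and 2761) sit left of the blue ones (3268 and 3073); for Des a blue circle at 1.42 CPM is hidden under a red one at 1.41.

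Both smooth muscle actins rose. Acta2 (chr19:34241090-34255590, minus strand), which encodes alpha smooth muscle actin, was at 531 and 499 CPM in the Id1+/+ libraries and 1114 and 1157 CPM in the Id1-/- libraries. The Id1-/- libraries were thus well above both controls, and the replicates of a genotype lay close together. The log2 fold was 1.14 (SE 0.08, edgeR adjusted p = 3.0e-08). Actg2 (chr6:83512905-83536265, minus strand), the gamma actin of visceral smooth muscle, was at 53.2 and 52.9 CPM against 64.4 and 68.3 CPM. Its groups did not overlap either, and the log2 fold was smaller, at 0.32 (SE 0.09, edgeR adjusted p = 0.011); without Id1-/- replicate 2 it was 0.28 with an adjusted p of 0.108. The letters of Acta2 and the cytoplasmic actin Actg1 differ enough to be counted apart over nearly the whole transcript, since 7 of the 2146 stretches of 50 bases in Acta2 also occur in Actg1.

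Of the calponin family, 3 of 4 genes rose. Cnn1, calponin 1 of differentiated smooth muscle (chr9:22099216-22109630, plus strand), was at 14.4 and 13.4 CPM in Id1+/+ and 36.1 and 40.7 CPM in Id1-/- libraries. This was the larger rise of the family, with a log2 fold of 1.47 (SE 0.11, edgeR adjusted p = 1.02e-07). Cnn3, a widely expressed calponin, was at 33.9 and 36.6 CPM against 77 and 82.5 CPM. Its log2 fold was 1.18 (SE 0.09, edgeR adjusted p = 1.07e-07). Cnn2, which stromal and myeloid cells express, was the most abundant calponin and moved little: 299 and 275 CPM against 320 and 336 CPM, a log2 fold of 0.20 (SE 0.08) that did not pass the test (edgeR adjusted p = 0.0766).

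Tagln (transgelin, or SM22 alpha), a standard marker of smooth muscle, was scarce in these cultures. It had 51 and 58 counts in the Id1+/+ libraries and 81 and 79 in the Id1-/- libraries. The groups did not overlap and the log2 fold was 0.71 (SE 0.23, edgeR adjusted p = 0.0338), but the adjusted p rose to between 0.0766 and 0.141 when any 1 of the 4 libraries was left out and to 0.156 in DESeq2. Of the 1988 exon bases of Tagln (chr9:45929619-45936058, minus strand), 67.9% are also covered by other genes, chiefly the antisense gene Gm48529. Gm48529 was itself called higher, with a log2 fold of 1.41 (22 and 19 counts against 41 and 57). The strand setting of the counting is not given in the sources used here, so reads of this pair cannot be told apart and the Tagln value is uncertain.

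Among myosin chains and their kinase, 4 of the 5 tested genes rose. Myh10, the heavy chain of non-muscle myosin IIB (chr11:68691559-68816632, plus strand), had the largest fold of all the contractile genes tested. It was at 5.73 and 6.44 CPM in Id1+/+ and 20.2 and 22.3 CPM in Id1-/- libraries. The levels of the genotypes lay far apart for their replicate spread, with a log2 fold of 1.80 (SE 0.14, edgeR adjusted p = 1.23e-07). Myh9, the heavy chain of non-muscle myosin IIA (chr15:77760587-77842175, minus strand), was much more abundant, at 730 and 867 CPM against 1176 and 1343 CPM. Its log2 fold was 0.66 (SE 0.09, edgeR adjusted p = 8.27e-05).

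Mylk (chr16:34745210-35002420, plus strand), the kinase that phosphorylates the regulatory light chain, was at 15.5 and 15.9 CPM in Id1+/+ and 33.4 and 35.6 CPM in Id1-/- libraries. Its groups were far apart, with a log2 fold of 1.13 (SE 0.11, edgeR adjusted p = 1.08e-06). Myl9, which encodes that regulatory light chain, was at 72.7 and 61.6 CPM against 103 and 111 CPM. The groups were apart by more than their spread, with a log2 fold of 0.67 (SE 0.09, edgeR adjusted p = 6.6e-05). The essential light chain Myl6, used by non-muscle and smooth muscle myosins alike, did not pass the test: it was at 973 and 941 CPM against 840 and 869 CPM, a log2 fold of -0.16 (edgeR adjusted p = 0.122). Myh11, the smooth muscle myosin heavy chain and the most specific marker of mature smooth muscle in the list, had 7 and 5 counts in Id1+/+ and 9 and 10 counts in Id1-/- libraries and was not tested.

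Thin-filament genes rose in 5 of 6 cases. Cald1, caldesmon (chr6:34598500-34775473, plus strand), was at 137 and 144 CPM in Id1+/+ and 273 and 280 CPM in Id1-/- libraries. The replicates of a genotype were close together, and the log2 fold was 0.98 (SE 0.08, edgeR adjusted p = 1.51e-07). Tpm2, beta-tropomyosin, was at 98.9 and 88.5 CPM against 167 and 175 CPM, a log2 fold of 0.87 (SE 0.08, edgeR adjusted p = 1.32e-06). Tpm1, alpha-tropomyosin, was at 263 and 233 CPM against 405 and 393 CPM, a log2 fold of 0.69 (SE 0.08, edgeR adjusted p = 1.28e-05). The tropomyosins were unequal, since Tpm4, at 495 and 455 CPM against 536 and 496 CPM, did not pass the test (log2 fold 0.12, edgeR adjusted p = 0.292). Smtn (smoothelin, which binds the actin of contractile smooth muscle) and Lmod1 (leiomodin 1, an actin nucleator of smooth muscle) were low in every library and higher in Id1-/-: Smtn at 14.2 and 13.2 CPM against 25.2 and 30.6 CPM (log2 fold 1.03). Lmod1 was at 6.67 and 5.25 CPM against 11 and 12.3 CPM (log2 fold 0.97).

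Of the cross-linkers and intermediate filaments, the 3 actin cross-linkers rose and the 2 intermediate filament genes did not. Flnc, the filamin of muscle (chr6:29433256-29461883, plus strand), was at 9.66 and 13.4 CPM in Id1+/+ and 30.1 and 35.4 CPM in Id1-/- libraries. Its groups were far apart although its Id1+/+ replicates differed more than those of most contractile genes, and its log2 fold was 1.5 (SE 0.14, edgeR adjusted p = 1.19e-06). The common filamin Flna was at 1046 and 1297 CPM against 1622 and 1806 CPM, a log2 fold of 0.55 (SE 0.10, edgeR adjusted p = 0.000598). Actn1, an alpha-actinin of stress fibres, was at 226 and 248 CPM against 334 and 358 CPM, with a log2 fold of 0.55 (SE 0.08, edgeR adjusted p = 0.000117). Vim, vimentin of mesenchymal and myeloid cells alike, was the most abundant of all at 3268 and 3073 CPM against 2752 and 2761 CPM. That drop (log2 fold -0.20, edgeR adjusted p = 0.063) did not pass the test. Des, desmin of muscle, was close to the detection limit at 29 and 13 counts against 19 and 26 counts, and its groups overlapped (log2 fold 0.25, SE 0.45, edgeR adjusted p = 0.73).

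All 7 adhesion and Z-line scaffold genes were called higher. Palld, palladin, which organises actin bundles (chr8:61511433-61902690, minus strand), had the smallest adjusted p of the contractile genes. It was at 29.5 and 32.2 CPM in Id1+/+ and 82.0 and 83.9 CPM in Id1-/- libraries, a log2 fold of 1.43 (SE 0.09, edgeR adjusted p = 1.15e-08). Vcl, vinculin, which links talin to actin, was at 85.1 and 93.6 CPM against 165 and 173 CPM. Its log2 fold was 0.92 (SE 0.08, edgeR adjusted p = 6.07e-07), and 25.5% of its exon bases are also covered by Ap3m1 on the opposite strand, which was called lower with a log2 fold of -0.28. Lpp, a LIM protein of adhesions, was at 36.5 and 43.6 CPM against 79.2 and 85.2 CPM, a log2 fold of 1.04 (SE 0.10, edgeR adjusted p = 1.12e-06). The muscle scaffold Synpo2 was rare, at 1.67 and 2.15 CPM against 3.84 and 4.39 CPM, and its log2 fold of 1.10 (SE 0.26) had an edgeR adjusted p of 0.00539, which became 0.0521 without Id1+/+ replicate 1.

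The other 3 scaffolds moved by small steps. Zyx, zyxin of strained adhesions, was at 138 and 130 CPM in Id1+/+ and 164 and 172 CPM in Id1-/- libraries (log2 fold 0.33, edgeR adjusted p = 0.00624; 0.0806 without Id1-/- replicate 2). Pdlim7, a PDZ-LIM scaffold, was at 65.6 and 63.0 CPM against 75.1 and 82.5 CPM (log2 fold 0.29, edgeR adjusted p = 0.0192). Its adjusted p was 0.051 and 0.0862 when Id1+/+ replicate 1 and Id1+/+ replicate 2 were left out in turn, and 0.201 when Id1-/- replicate 2 was. Pdlim5 was the weakest of the 27 calls, at 117 and 122 CPM against 141 and 137 CPM (log2 fold 0.22, edgeR adjusted p = 0.0485). The adjusted p of Pdlim5 was 0.056 with RLE size factors and 0.0614 with no filter in edgeR, and 0.0789 in DESeq2. Of 10 fits, this one included, 3 called it. Leaving out any 1 library took its adjusted p to between 0.0714 and 0.252.

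Of the LIM-only proteins and Srf, 3 of 4 genes rose. Csrp1 and Csrp2 encode cysteine-rich LIM proteins that bind alpha-actinin. Csrp1 was at 174 and 160 CPM in Id1+/+ and 280 and 287 CPM in Id1-/- libraries, a log2 fold of 0.76 (SE 0.08, edgeR adjusted p = 2.85e-06). Csrp2 was at 19.9 and 17.1 CPM against 27.4 and 32.7 CPM, a log2 fold of 0.70 (SE 0.12, edgeR adjusted p = 0.000471). Fhl2, a LIM-only cofactor, was at 20.9 and 16.8 CPM against 24.6 and 25.6 CPM. The genotypes did not overlap, and its Id1+/+ replicates were 0.31 apart on the log2 scale. Its log2 fold was 0.41 (SE 0.12, edgeR adjusted p = 0.0194), and the adjusted p was 0.173 once Id1+/+ replicate 2 was left out, 0.0674 or 0.106 once either Id1-/- library was, and 0.0624 in DESeq2. Srf itself was at 92.3 and 90.0 CPM against 94.1 and 106 CPM and did not pass the test (log2 fold 0.13, SE 0.09, edgeR adjusted p = 0.265).

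Levels between genes can be set side by side only per length of transcript. Per kilobase of exon in the Id1+/+ MLL-AF9 libraries, Vim led with 669 CPM per kb, followed by Myl6 with 300 and Acta2 with 235. Des (0.268), Synpo2 (0.146) and Myh11 (0.0376) were lowest. In the Id1-/- libraries Acta2 reached 517 CPM per kb and passed Myl6, which was at 268. The exon lengths are those of all GENCODE transcripts of a gene together, so genes with long rare exons come out too low.

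The second comparison asks the same of AE9a. There the contractile genes were again mostly higher in the Id1-/- library, as far as 1 library of each genotype can show. Among the 32 contractile genes that averaged 1 CPM or more, 19 were at least 2-fold higher and 0 were at least 2-fold lower, where 11.6% and 1.52% of all 12730 genes at that level were. Their median log2 ratio was 1.26, beside -0.008 over all those genes. The 34 genes made up 0.701% of all counts in the Id1+/+ and 1% in the Id1-/- library. Of all 34, 17 were both called higher in MLL-AF9 and at least 2-fold higher in AE9a. The share of all genes that met both was not counted, so that number has no background beside it. The intervals on the AE9a ratios are 95% exact (Clopper-Pearson) intervals that cover counting error only, and there is no replicate check.

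In AE9a, Acta2 went from 117 to 399 CPM, a ratio of 3.41 (interval 3.26 to 3.58). Cald1 went from 85.1 to 365 CPM, a ratio of 4.29 (4.06 to 4.52). Cnn3 went from 9.61 to 44.5 CPM, a ratio of 4.64 (3.96 to 5.46). All of these had also risen in MLL-AF9. Cnn2, which had not passed the test there, went from 67.4 to 153 CPM in AE9a, a ratio of 2.27 (2.12 to 2.42). The genes near their floor in MLL-AF9 had higher counts in the Id1-/- library here. Myh11 had 22 counts in Id1+/+ and 93 in Id1-/-, a ratio of 4.26 (2.66 to 7.13). Tagln had 8 and 28 counts, a ratio of 3.53 (1.57 to 8.96). In the deposited columns with the added constant its ratio turned the other way. At such counts the constants of 134 and 17 alone bring that about, so it is no check on Tagln. Des had 1 and 19 counts, a ratio of 19.2 with an interval of 3.05 to 796.

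The AE9a ratios nearest to 1 were those of Vim, Myh9, Zyx, Srf and Myl6. Myh9 went from 1084 to 1181 CPM, a ratio of 1.09 (1.07 to 1.11). Zyx had a ratio of 1.13 (1.07 to 1.18), and Srf a ratio of 1.14 (1.04 to 1.24). Vim went from 3011 to 2811 CPM, a ratio of 0.934 (0.923 to 0.945), and Myl6 from 482 to 394 CPM, a ratio of 0.817 (0.793 to 0.842). The Vim direction depends on the scaling: with library totals in place of TMM its log2 ratio was 0.10, where the median of all genes moved to 0.19.

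**Figure D2:**
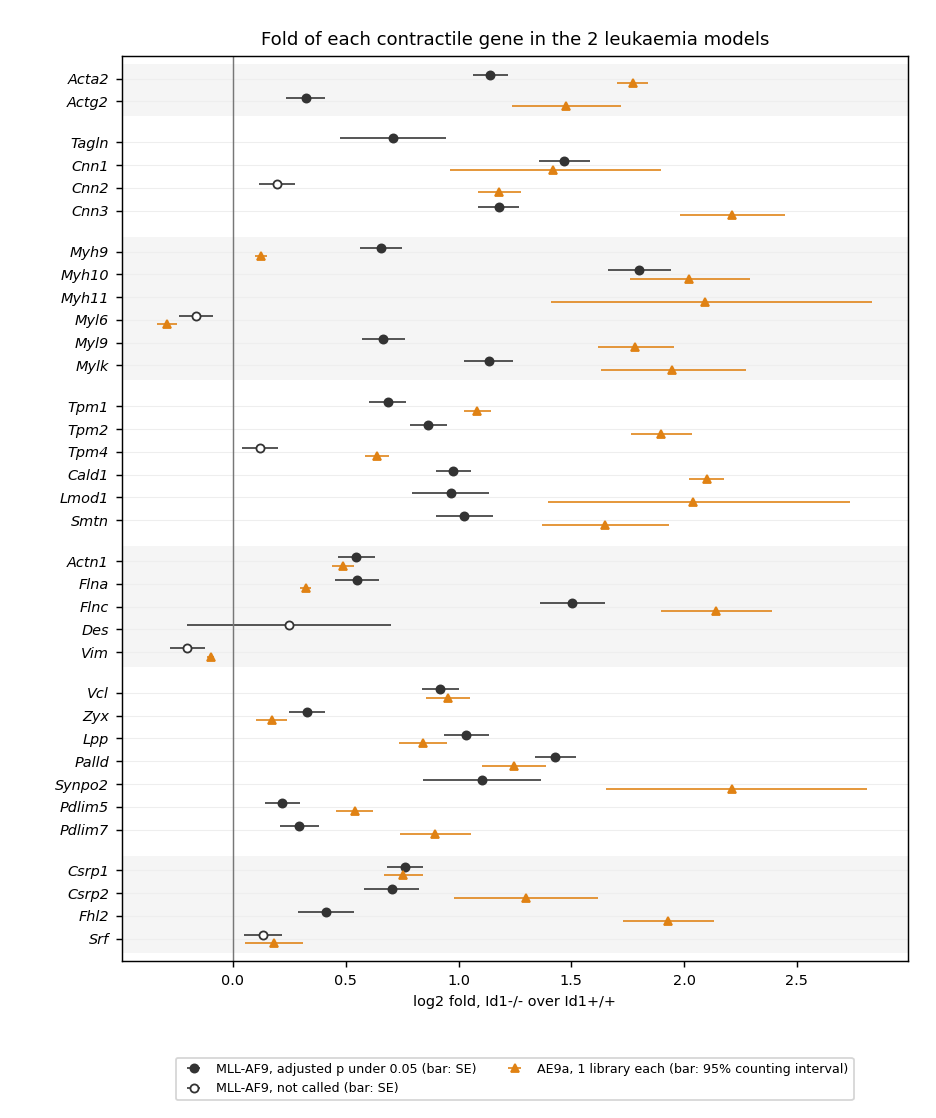
Fold of each contractile gene as log2 of Id1-/- over Id1+/+, with circles for MLL-AF9 (filled when the edgeR adjusted p was under 0.05, bars showing the SE) and triangles for AE9a (1 library of each genotype, bars showing the 95% counting interval); Tagln and Des, under 1 CPM in AE9a, have no triangle, and Myh11, not tested in MLL-AF9, has no circle. Triangles lie right of circles for Actg2, Cnn2, Cald1 and Fhl2, and left of the circle for Myh9.

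Whether the fold differed between the leukaemia models was tested directly, in a fit of the 6 usable libraries. Its spread comes from MLL-AF9 and is taken to hold for AE9a as well. Each model was deposited as its own table, so a difference between models cannot be told apart from one in how the tables were made. For 9 of the 34 contractile genes the log2 fold was larger in AE9a, where 3.73% of all 15107 genes tested were, and for 1 it was smaller, where 6.57% were. Fhl2 differed most, by 1.43 (SE 0.20, edgeR adjusted p = 0.000554): it went from 13.4 to 51.0 CPM in AE9a, a ratio of 3.81 (3.32 to 4.38) against a log2 fold of 0.41 in MLL-AF9. Actg2 differed by 1.06 (SE 0.18, edgeR adjusted p = 0.00173), going from 9.97 to 27.7 CPM in AE9a. Cald1 differed by 1.03 (SE 0.14, edgeR adjusted p = 0.000324). Myl9 also differed by 1.03 (SE 0.18, edgeR adjusted p = 0.0022), with 19.2 and 66.0 CPM in AE9a. The others with a larger fold were Cnn3 (0.94), Tpm2 (0.94), Cnn2 (0.89), Mylk (0.72) and Acta2 (0.54).

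Myh9 was the exception, with a fold that was smaller in AE9a by a log2 difference of -0.62 (SE 0.16, edgeR adjusted p = 0.024). That call was lost without MLL-AF9 Id1+/+ replicate 1 (0.0702), without Id1-/- replicate 2 (0.117), with library totals (0.148) and in DESeq2 (0.201). None of the 7 adhesion scaffolds and none of the 5 cross-linkers and intermediate filaments was called different between models by edgeR or by DESeq2, although Synpo2, Pdlim7, Flnc and Des had an unadjusted p under 0.05. In other edgeR fits Pdlim7 was called larger in AE9a (0.0464 with RLE size factors, 0.0188 with library totals and 0.0344 without Id1+/+ replicate 2), as were Flnc (0.0315 without Id1+/+ replicate 1) and Des (0.0332 without Id1+/+ replicate 2). For Palld, for instance, the difference was -0.27 (SE 0.16, edgeR adjusted p = 0.311), and for Vcl it was -0.06 (SE 0.15, edgeR adjusted p = 0.862). These misses do not show equal folds. The number called larger in AE9a was 14 without MLL-AF9 Id1+/+ replicate 2 and between 7 and 10 without each of the other MLL-AF9 libraries.

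**Figure D3:**
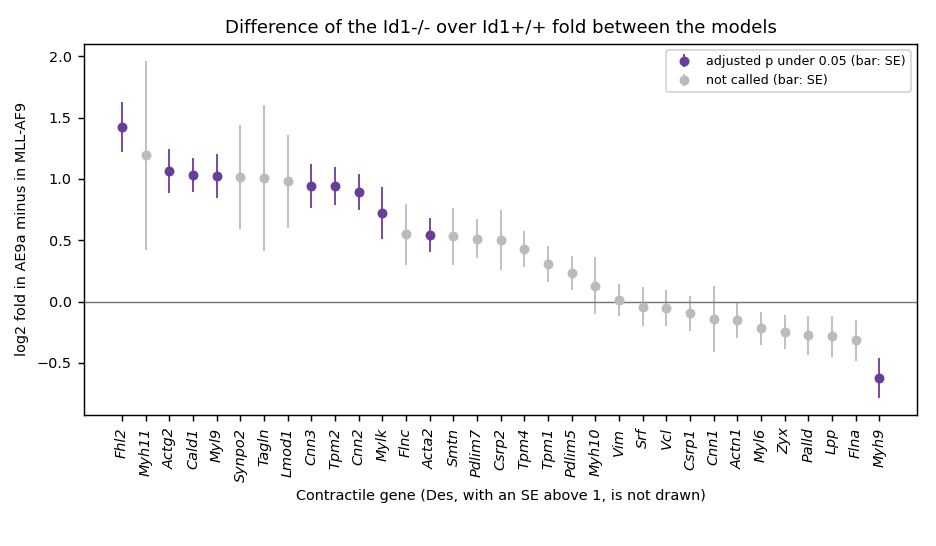
Difference between the models in the log2 fold of Id1-/- over Id1+/+ (AE9a minus MLL-AF9), by gene in falling order, with bars for the SE of the joint fit and purple points for an edgeR adjusted p under 0.05; Des is not drawn because its SE is above 1. The called points run from 0.54 for Acta2 to 1.43 for Fhl2, and Myh9, at -0.62, is the called point below 0.

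Other genes of the actomyosin system were set beside these. Among the SRF cofactors and TEAD/YAP factors, 5 of 11 tested genes rose in MLL-AF9 and 0 fell (also 0 at an unadjusted p under 0.05 and in DESeq2), and all 5 belong to the TEAD/YAP side. Tead1, a DNA-binding partner of YAP1, was at 11.9 and 12.5 CPM in Id1+/+ and 30.2 and 31.7 CPM in Id1-/- libraries, a log2 fold of 1.34 (SE 0.11, edgeR adjusted p = 3.04e-07). Yap1 had a log2 fold of 1.12 (edgeR adjusted p = 1.85e-06) and Wwtr1 (TAZ) one of 1.04 (edgeR adjusted p = 5.43e-05). The SRF cofactors did not pass: Mrtfa was at 123 and 125 CPM against 119 and 136 CPM (log2 fold 0.04, edgeR adjusted p = 0.755), and Mrtfb had a log2 fold of 0.16 (edgeR adjusted p = 0.232). Myocd, the SRF cofactor of muscle, had 0 counts in AE9a Id1+/+ and 11 in AE9a Id1-/- and was not analysed in MLL-AF9. The AE9a ratio was 0.83 (0.779 to 0.884) for Mrtfa and 0.72 (0.67 to 0.773) for Mrtfb. It was 4.66 (3.83 to 5.71) for Yap1, 4.09 (3.57 to 4.69) for Tead1 and 3.6 (2.84 to 4.61) for Wwtr1.

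Among paralogues and adhesion partners, 15 of 25 tested rose and 1, Tes, fell, with a median log2 fold of 0.49. Synpo, the synaptopodin paralogue of Synpo2, was at 6.86 and 6.89 CPM against 27.5 and 31.2 CPM, a log2 fold of 2.09 (SE 0.13, edgeR adjusted p = 9.03e-09). Parvin alpha, Parva, which binds integrin-linked kinase, had a log2 fold of 1.10 (edgeR adjusted p = 3.83e-07). Not every paralogue followed: Actn4 (0.07, edgeR adjusted p = 0.561), Tpm3 (-0.14, edgeR adjusted p = 0.194) and Tagln2 (-0.08, edgeR adjusted p = 0.506) did not pass the test.

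The general actin cytoskeleton went the other way in MLL-AF9. Of 26 genes for actin monomers, Arp2/3 subunits, cofilins and other turnover factors, 15 fell and 0 rose in edgeR (1, Cfl2, at an unadjusted p under 0.05, and 0 in DESeq2), with a median log2 fold of -0.24. With library totals in place of TMM, 8 fell and 1 rose, while the median of all genes moved from 0.003 to 0.11; 6, 7 and 9 fell without Id1-/- replicate 1, Id1-/- replicate 2 and Id1+/+ replicate 1. Capg, a capping protein of macrophages, fell by 0.46 on the log2 scale (edgeR adjusted p = 0.000377), Tmsb4x, which sequesters actin monomers, fell by 0.44 (edgeR adjusted p = 0.00213), and cofilin Cfl1 fell by 0.36 (edgeR adjusted p = 0.00256). Cytoplasmic beta-actin, Actb, was at 8111 and 7031 CPM in Id1+/+ and 6265 and 6032 CPM in Id1-/- libraries (log2 fold -0.30, edgeR adjusted p = 0.0149), whereas in AE9a its ratio was 1.2 (1.18 to 1.21). That difference between models was called (0.47, edgeR adjusted p = 0.0444). Of 28 striated muscle genes, 6 could be tested in MLL-AF9, where Tnni2 was the most abundant, at 13.8 and 12.8 CPM in Id1+/+ and 13.1 and 9.96 CPM in Id1-/- libraries (edgeR adjusted p = 0.335). In AE9a, Tnni3 had 116 and 617 counts, a ratio of 5.37 (4.39 to 6.6), and its fold was larger than in MLL-AF9 by 1.77 on the log2 scale (edgeR adjusted p = 0.0312). In MLL-AF9 1 gene of the list, Actn3, with under 1 CPM in every library, was called higher by edgeR, and none by DESeq2.

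**Figure D4:**
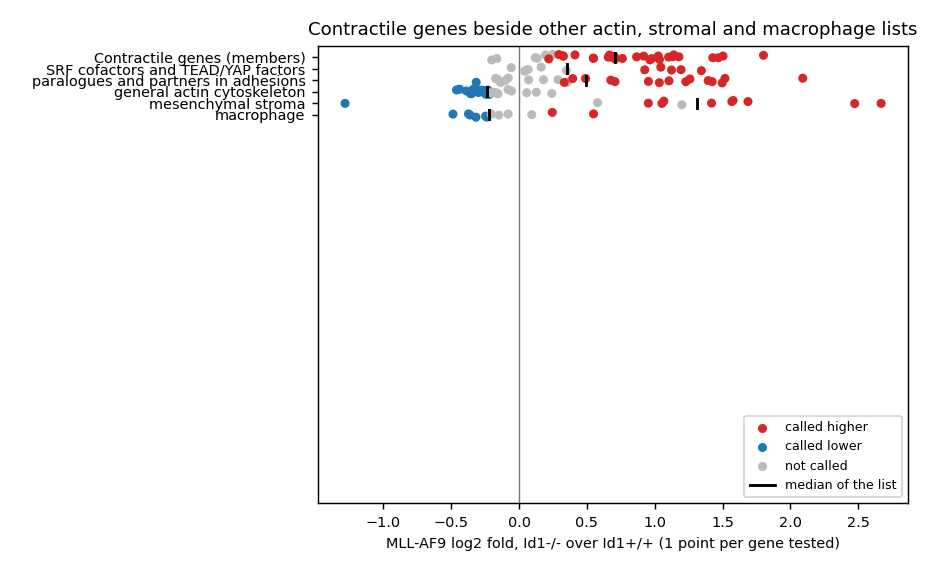
MLL-AF9 log2 fold of Id1-/- over Id1+/+ for every tested gene of the contractile genes, 3 other actomyosin lists and 2 cell type marker lists, with 1 point per gene, red for called higher, blue for called lower, grey for not called and a black line at each median (vertical scatter within a list is arbitrary). The medians are 0.70 for the contractile genes, 1.31 for the mesenchymal markers and -0.24 for the general actin cytoskeleton, of which 15 genes were called lower with TMM scaling and 8 lower and 1 higher with library totals.

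Cell type marker lists did not all move alike in MLL-AF9. In summed level the mesenchymal, pericyte and osteoblast lists rose, as did most contractile genes, while the macrophage and neutrophil lists fell. Mesenchymal markers rose in 9 of 12 cases and fell in 1 (Cxcl12) in MLL-AF9, and none was at 0. Their summed level went from 797 and 877 CPM in Id1+/+ to 3611 and 3912 CPM in Id1-/- libraries, and from 291 to 1209 CPM in AE9a. Most of that sum is collagen: Col1a2 went from 310 and 339 to 1744 and 1862 CPM in MLL-AF9. The log2 folds of the list ranged from -1.28 for Cxcl12 (edgeR adjusted p = 1.02e-07) to 2.67 for Col1a1. Cxcl12 was lower in AE9a as well, with a ratio of 0.283 (0.252 to 0.318). The stromal receptor Pdgfrb, with less RNA than the collagens, went from 27.4 and 29.4 to 54.5 and 64.7 CPM in MLL-AF9, a log2 fold of 1.07. In AE9a the Pdgfrb ratio was 4.61 (4.04 to 5.29), larger by 1.05 on the log2 scale than in MLL-AF9 (edgeR adjusted p = 0.003).

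The pericyte list summed to 5.54 and 6.98 CPM in Id1+/+ and 11.3 and 14.2 CPM in Id1-/- MLL-AF9 libraries, where 2 of its 3 tested genes (Cspg4 and Notch3) rose and 5 of 8 (Rgs5, Kcnj8, Abcc9, Heyl and Higd1b) were not analysed. In AE9a it went from 6.18 to 26.5 CPM, with 5 and 8 counts for Rgs5, 0 and 1 for Kcnj8 and Higd1b, 2 and 3 for Abcc9 and 0 and 6 for Heyl. The osteoblast list summed to 70.6 and 66.8 CPM against 136 and 144 CPM in MLL-AF9 (3 of 4 tested rose) and to 24 and 33.3 CPM in AE9a. The blood lists went down in MLL-AF9: the 12 macrophage markers from 30400 and 27590 to 24960 and 24440 CPM, with 6 lower and 2 higher, and the neutrophil markers from 326 and 265 to 158 and 156 CPM, with 6 of 7 tested lower. In AE9a the macrophage sum went from 36240 to 27750 CPM. The neutrophil sum was small there and went the other way than in MLL-AF9, from 10.5 to 21.7 CPM. Of the 5 neutrophil markers that averaged 1 CPM or more in AE9a, 4 were higher in the Id1-/- library. S100a9 went from 7 to 96 counts, a ratio of 13.8 (6.46 to 35.3), and S100a8 from 137 to 117, a ratio of 0.861 (0.667 to 1.11). Endothelial markers gave 0 calls among 3 tested in edgeR and in DESeq2 and 0 at an unadjusted p under 0.05, summing to 9.41 to 11.2 CPM in MLL-AF9, and skeletal and cardiac muscle markers summed to at most 2.11 CPM there. The part of these cell types in the contractile gene results was not tested.

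The promoter letters were then counted over the 30 contractile genes with an entry in the RefSeq table; Actg2, Tagln, Myh11 and Csrp2 have none. A CArG box was found in 6 of the 30 (Cnn2, Fhl2, Myl6, Myl9, Srf and Vcl), against 1.81% of 27025 genes; by promoter, 7 of 39 against 1.63% of 32851. Of those 6, 3 were called higher in MLL-AF9 (Fhl2, Myl9 and Vcl), and of the 24 without a box, 21 were. Over all genes tested with a promoter entry, 31% of those with a box and 17.2% of those without were higher. Near forms were found in 4 of 30 (Acta2, Flnc, Lpp and Myl9), against 9.69% of all genes. All 4 were called higher, as were 20 of the 26 without one. Over all genes tested with a promoter entry, 15.7% of those with a near form and 17.6% of those without were higher.

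The MCAT element, CATTCC on either strand, to which TEAD factors bind, was found in 12 of the 30, among them Acta2, Cald1, Flnc, Mylk, Palld and Tpm1, against 16.6% of all genes. All 12 were called higher, as were 12 of the 18 without it. Over all genes tested with a promoter entry, 19.5% of those with the element and 17.1% of those without were higher. The E-box CANNTG was found in 21 of the 30, against 75% of all genes, and 17 of those 21 and 7 of the other 9 were called higher. Over all genes tested with a promoter entry, 16.9% of those with an E-box and 18.5% of those without were higher. CArG boxes and near forms overlapped neither each other nor the other motifs in these promoters, and 1 MCAT element overlapped an E-box, in Myh10. Such matches describe letters within 300 bases and do not show a bound site.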

How the data were processed

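RNA was measured in 8 libraries of cultured mouse marrow stromal cells. Per the submitters' processing notes, the tools were HISAT2 2.2.1 and featureCounts 2.0.1, with fastp 0.22.0 and DESeq2 1.32.0, on build mm10, in no stated order; the strand setting is not given in the sources used here. The authors deposited whole-number counts per gene name, not normalized, in separate tables for each leukaemia model. For AE9a, 1 deposited column of each genotype is a score, meaning the other column's counts plus a constant, and served only in 1 alternative.

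Depth was 17864812 to 22510346 counts in the 6 libraries used. The MLL-AF9 replicates differed like separate libraries (median chi-square of 2.187 and 1.707, against 0.455 for sampling noise). For MLL-AF9, edgeR 4.0.16 (R 4.3.3) kept genes by filterByExpr, scaled them by TMM and ran two-sided quasi-likelihood F tests; p-values were Benjamini-Hochberg adjusted across the whole table, and calls were made below 0.05. Log2 folds are Id1-/- over Id1+/+ with edgeR's default prior count. AE9a genes needed 10 counts in the pair of columns, the 2-fold counts and medians used a prior count of 2, and printed ratios are of TMM-scaled CPM with 95% exact binomial (Clopper-Pearson) intervals. These cover counting error only, since reads carried no molecular identifiers. CPM was scaled within each table, so levels of the models stand side by side untested. The joint fit of 6 libraries used the genes of both tables.

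The 34 genes and the other lists were chosen with earlier results of these data known, so no list was tested as a set. All 34 are described; of each other list the 3 tested genes with the smallest adjusted p are named (1 such gene and 1 list are not reported here), with paralogues of described genes, and Id1. Mrtfa, Mrtfb, Myocd, Actb, Pdgfrb and other genes outside that rule were chosen after their values were seen. The tests were checked on simulated counts. There the AE9a pair was drawn with the spread of MLL-AF9, so that assumption of the joint fit was not checked. Alternatives were other scalings, no filter, DESeq2 1.42.0, each library left out, a replicate block and, chosen after seeing the data, leaving out genes that share 15% or more of their exon bases with another gene. Exons and coordinates are GENCODE M21 (GRCm38), the mm10 build.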

Additional observations from a re-analysis of the deposited data

Results flagged for a closer look

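The fold of Id1-/- over Id1+/+ differed between AE9a and MLL-AF9 for 10 of the 34 contractile genes by the test of that difference (edgeR quasi-likelihood, Benjamini-Hochberg adjusted over 15107 genes). The log2 fold was larger in AE9a by 1.43 for Fhl2, 1.06 for Actg2, 1.03 for Cald1, 1.03 for Myl9, 0.94 for Cnn3, 0.94 for Tpm2, 0.89 for Cnn2, 0.72 for Mylk and 0.54 for Acta2, and for Myh9 the difference was -0.62. The AE9a side of each rests on 1 library of each genotype, and model and deposited table cannot be told apart. Of the 12 mesenchymal markers, 5 were called larger and 1 smaller in AE9a: Prrx1 (0.98), Pdgfrb (1.05), Pdgfra (1.25), Col3a1 (1.04) and Dcn (1.96) against Cxcl12 (-0.63). Col1a1 (-0.27) and Col1a2 (-0.09), which hold most of the summed marker level, were not called. The part of these markers in the differences above was not tested.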

How the results depend on the processing

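Of the 27 calls in MLL-AF9, 20 were also made in each of 9 alternatives to the fit. The number higher was 26 with RLE size factors, 30 with library totals, 26 with no filter, 24 in DESeq2 and 21 to 24 with 1 library left out; 4 of the 27 (Tagln, Cnn3, Smtn and Vcl) share 15% or more of their exon bases with other genes, which leaves 23. The number lower was 1 in DESeq2 and 0 to 1 with 1 library left out (Vim without Id1+/+ replicate 2). With a replicate block it was 2 (Myl6 and Vim), 28 were higher, and 5193 genes were called in all; the replicates' deviations correlated at 0.069 over 14137 genes, so the shared numbers are not shown to pair libraries. Of all genes 2225 to 3864 were called with 1 library left out (3936 with all): 2319 without Id1+/+ replicate 1, 2225 without Id1-/- replicate 1 and 2477 without Id1-/- replicate 2; 1555 to 2234 were higher and 621 to 1630 lower. Library totals left 598 lower and made 84% of calls higher, against 61.8%. Des ranged from -0.271 to 0.983 with 1 library left out, below 0 without Id1+/+ replicate 2 (-0.27) or Id1-/- replicate 2 (-0.0439). In AE9a the number past 2-fold was 19 to 22 over the alternatives, with 20 in the columns with the added constant. Those columns gave 1 lower, Tagln (-1.14), and put Myh11 at -0.0192. At low counts these values follow from the constants and are no check on either gene. Between models, 7 to 14 genes had the larger fold in AE9a with 1 MLL-AF9 library left out, and the number smaller was 0 to 1, and 0 with library totals and in DESeq2; all genes called were 775 in DESeq2 and 891 to 1763 with 1 library left out (1556 with all). Acta2 lost its call of a difference without Id1-/- replicate 1 or 2, and Mylk did so there and in DESeq2. Uncalled differences changed sign with library totals, where the median of all genes moved from -0.08 to 0.12, for Cnn1 (0.0624), Actn1 (0.0529), Vcl (0.15), Csrp1 (0.11) and Srf (0.16). With 1 library left out, Vcl ranged from -0.0852 to 0.0501, Csrp1 from -0.118 to 0.012 and Srf from -0.121 to 0.0471 (0.0274 without Id1+/+ replicate 2). The cause was not tested. Counts limited Myh11, which was too low to be tested in MLL-AF9, and Des, whose SE there was 0.45.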
